A study of Drosophila melanogaster with 9 samples.

Results

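The 7 genes described here act on the carbohydrate stores of the fly: GlyS, AGBE and GlyP of glycogen metabolism, Treh and Tret1-1 of trehalose metabolism, and tobi and AkhR, which are tied to the hormonal control of sugar use. They were chosen by name for these roles, with earlier results of these data known, from the 14409 genes of the deposited table. All 7 were among the 10883 genes tested. RNA was sequenced from ring glands, the endocrine organ of the Drosophila melanogaster larva. Its parts are the prothoracic gland (source of ecdysone), the corpora allata (juvenile hormone) and the corpora cardiaca (adipokinetic hormone, AKH). The 9 libraries fall into post-NRC starvation, pre-NRC starvation and feeding, with 3 in each group, where NRC is the nutrient restriction checkpoint. Starvation fell after that larval checkpoint in post-NRC larvae and before it in pre-NRC larvae, and feeding larvae were the controls.

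All larvae were of the w1118 strain, with no transgene named, and glands of many larvae were pooled for each library. The headers of the feeding columns carry a time of 108 hours, with no stated start. For the starved groups the sources used here give neither an age nor a length of starvation, so the effects of age and of starvation cannot be told apart. Library totals ran from 29123939 to 36131089 counts. In each group the third replicate lay apart from the other 2, so calls of the 7 genes that change with replicates 1 and 2 alone, and the total counts of the pathway lists, are given both ways. Markers of the ring gland were counted in every library. In pre-NRC starvation, 6 of 6 ecdysone enzyme genes of the prothoracic gland were lower and 2 of 2 corpora cardiaca markers were higher than in feeding. These stand beside 11.5% lower and 16.1% higher among all genes tested. The corpora allata marker jhamt differed by 0.06 on the log2 scale and was not called (edgeR adjusted p = 0.87). Values for markers of midgut, fat body, muscle and aorta, hemocytes, neurons and salivary gland are given after the gene results. In such bulk samples, fewer cells of a type and less RNA per cell cannot be told apart.

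Glycogen is a branched glucose polymer that cells keep as a store. Glycogen synthase extends its chains, the branching enzyme adds branch points, and glycogen phosphorylase releases glucose 1-phosphate from chain ends. Trehalose is the main sugar of insect blood: the fat body makes and exports it, Tret1 transporters move it across membranes and trehalase splits it into glucose. AKH, released from the corpora cardiaca when sugar runs low, acts through its receptor AkhR on the fat body to mobilise stored glycogen and fat. The gene tobi encodes an alpha-glucosidase and is named as a target of brain insulin.

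GlyP (current symbol Glyp, FBgn0004507) lies on the plus strand of chromosome 2L at 2130813 to 2137296 in BDGP6, and AkhR (FBgn0025595) lies on the minus strand of 2L at 6711286 to 6716186. On chromosome 2R, all on the plus strand, are Tret1-1 (FBgn0050035) at 11665768 to 11674782, AGBE (FBgn0053138) at 13171401 to 13174796 and Treh (FBgn0003748) at 21074018 to 21088945. GlyS (Glys, FBgn0266064) at 15141843 to 15147531 and tobi (FBgn0261575) at 25344761 to 25346921 are on the minus strand of 3R. No exon of the 7 genes is shared with a gene on the same strand. Treh overlaps Rbpn-5 and tobi overlaps rha on the opposite strand, and the strand setting of the counting is not given in the sources used here. In the authors' deposited annotation, GlyP, GlyS, AGBE and tobi carry the starch and sucrose pathway, AkhR carries the neuroactive ligand-receptor pathway, and Treh and Tret1-1 carry no pathway.

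The genes showed 2 patterns. The 3 glycogen genes were highest in feeding glands and lowest in glands starved after the checkpoint, with GlyP at 75.0 ± 8.48 CPM in post-NRC starvation, 129.6 ± 17.6 CPM in pre-NRC starvation and 190.1 ± 13.9 CPM in feeding (SD, n = 3 each). CPM is the count of a gene scaled to a fixed library size. Treh, Tret1-1, tobi and AkhR were instead highest in glands starved before the checkpoint. Tret1-1 averaged 15.4 ± 2.86 CPM in post-NRC starvation, 57.3 ± 14.1 CPM in pre-NRC starvation and 11.1 ± 2.25 CPM in feeding (SD, n = 3 each). Changes were tested with edgeR's quasi-likelihood test with Benjamini-Hochberg adjustment over all 10883 genes, at a threshold of 0.05 on the adjusted p.

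**Figure D1:**
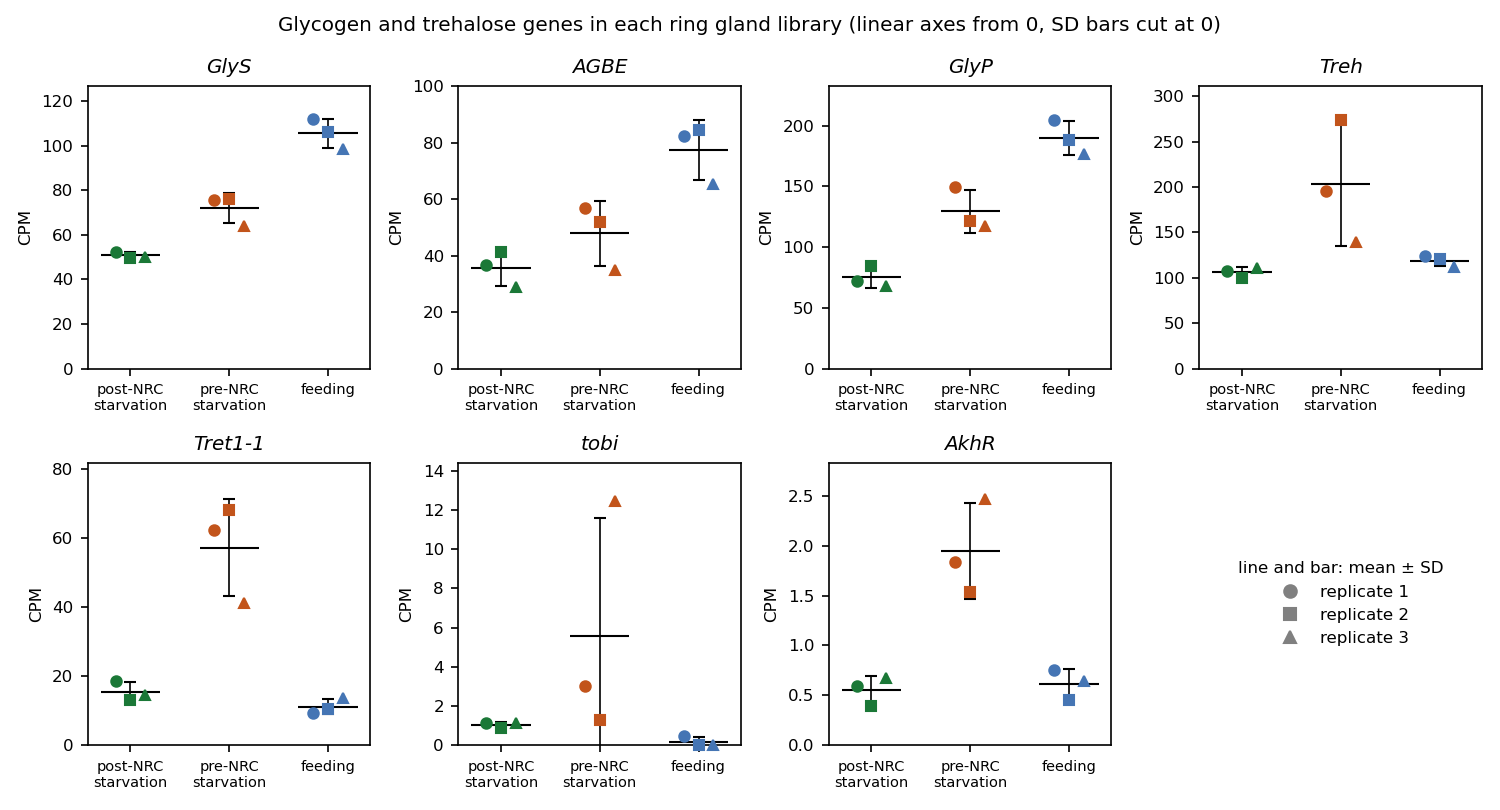
Level of each of the 7 genes in CPM (linear axis from 0) in every library of post-NRC starvation, pre-NRC starvation and feeding; symbols mark the replicate and the line and bar give the mean and SD of 3. The means of the 3 glycogen genes were lowest in post-NRC starvation and highest in feeding, while Tret1-1 in pre-NRC starvation lay between 41.3 and 68.2 CPM, above all other libraries.

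GlyS, the glycogen synthase gene, had 52.5, 49.6 and 50.3 CPM in the 3 post-NRC libraries, 75.5, 76.2 and 64.2 CPM in the pre-NRC libraries and 111.9, 106.2 and 98.7 CPM in the feeding libraries. The 3 groups did not overlap, and the post-NRC libraries lay within 3 CPM of each other. Relative to feeding, GlyS fell by 1.06 on the log2 scale in post-NRC starvation (SE 0.16, edgeR adjusted p = 0.0269), to 0.481 times the feeding level, and missed with the 2 groups alone (edgeR adjusted p = 0.0596). It fell by 0.55 in pre-NRC starvation (SE 0.16, edgeR adjusted p = 0.0316), to 0.682 times the feeding level. Post-NRC over pre-NRC starvation gave a log2 change of -0.50 that did not pass (edgeR adjusted p = 0.0873).

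AGBE, the branching enzyme gene, had 36.7, 41.5 and 28.8 CPM in post-NRC starvation, 57.0, 51.8 and 34.9 CPM in pre-NRC starvation and 82.4, 84.7 and 65.4 CPM in feeding. Every starved library was below every feeding library, and the 2 starved groups overlapped through pre-NRC replicate 3. Replicate 3 was the lowest library of each group. The log2 changes were -1.12 in post-NRC starvation (SE 0.24, edgeR adjusted p = 0.0808) and -0.69 in pre-NRC starvation (SE 0.24, edgeR adjusted p = 0.0603), and neither passed. With the replicate number as a block, both passed, at -1.13 (edgeR adjusted p = 0.0277) and -0.71 (edgeR adjusted p = 0.0113). With replicates 1 and 2 of each group alone they were -1.10 (edgeR adjusted p = 0.0175) and -0.64 (edgeR adjusted p = 0.0166).

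GlyP, the phosphorylase gene, had 72.3, 84.6 and 68.3 CPM in post-NRC starvation, 149.8, 121 and 118 CPM in pre-NRC starvation and 205, 188 and 177 CPM in feeding. No library of a group reached the range of another group. Relative to feeding, GlyP fell by 1.34 on the log2 scale in post-NRC starvation (SE 0.18, edgeR adjusted p = 0.0181), to 0.395 times the feeding level. In pre-NRC starvation it fell by 0.55 (SE 0.18, edgeR adjusted p = 0.0482), the same fitted change as GlyS to 2 decimals. That call missed with RLE factors (edgeR adjusted p = 0.056), upper-quartile factors (0.102), no filter (0.0646) and the 2 groups alone (0.0613), and that of GlyS with upper-quartile factors (0.0673). Post-NRC levels were also lower than pre-NRC levels, by a log2 change of -0.79 (SE 0.18, edgeR adjusted p = 0.0439), a call that missed without a filter (edgeR adjusted p = 0.057) and with the 2 groups alone (0.103).

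The enzymes that build and break down glycogen thus had the same direction in both starved groups. The ratio of GlyP to GlyS counts was 1.38, 1.71 and 1.36 in post-NRC starvation, 1.98, 1.59 and 1.83 in pre-NRC glands and 1.83, 1.77 and 1.79 in feeding. It lay below the feeding ratios in all 3 post-NRC libraries and on both sides of them in pre-NRC starvation. The ratio of AGBE to GlyS counts was 0.698, 0.837 and 0.573 in post-NRC starvation, 0.755, 0.680 and 0.543 in pre-NRC glands and 0.737, 0.798 and 0.663 in feeding, with overlap among the 3 groups.

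Treh, the trehalase gene, had 108, 99.8 and 111 CPM in post-NRC starvation, 195, 274 and 139.7 CPM in pre-NRC starvation and 124, 120.1 and 112 CPM in feeding. All pre-NRC libraries were above all others, with a spread of 67.6 CPM (SD, n = 3) against 5.77 CPM in post-NRC starvation and 6.03 CPM in feeding. The rise in pre-NRC starvation was 0.77 on the log2 scale (SE 0.24, edgeR adjusted p = 0.0436), or 1.71-fold, and it missed without a filter (edgeR adjusted p = 0.0561), with the 2 groups alone (edgeR adjusted p = 0.0715) and with voom (limma adjusted p = 0.0535). Post-NRC starvation differed from feeding by a log2 change of -0.16 (SE 0.24, edgeR adjusted p = 0.823) and from pre-NRC starvation by -0.94 (SE 0.24, edgeR adjusted p = 0.0573). Rbpn-5, which overlaps Treh on the other strand, had 24.0 to 30.5 CPM in post-NRC starvation, 25.8 to 30.3 CPM in pre-NRC starvation and 31.2 to 43.6 CPM in feeding. It was thus lower in every pre-NRC library than in any feeding library, the reverse of Treh.

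Tret1-1, the facilitated trehalose transporter gene, had 18.6, 13.03 and 14.5 CPM in post-NRC starvation, 62.4, 68.2 and 41.3 CPM in pre-NRC starvation and 9.32, 10.4 and 13.7 CPM in feeding. The pre-NRC libraries stood above all others, and post-NRC starvation overlapped feeding. It rose 5.14-fold in pre-NRC starvation over feeding, a log2 change of 2.36 (SE 0.27, edgeR adjusted p = 0.00161). Post-NRC starvation was lower than pre-NRC starvation by a log2 change of -1.90 (SE 0.27, edgeR adjusted p = 0.0196). Against feeding, post-NRC starvation gave a log2 change of 0.46 (SE 0.26, edgeR adjusted p = 0.465). Its neighbour and paralog Tret1-2 had at most 9 counts in a library, and adding them to Tret1-1 gave a log2 change of 2.35 in pre-NRC starvation (edgeR adjusted p = 0.00163).

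Transporter and enzyme did not change by the same amount. The ratio of Tret1-1 to Treh counts was 0.172, 0.131 and 0.131 in post-NRC starvation, 0.320, 0.249 and 0.296 in pre-NRC glands and 0.0751, 0.0869 and 0.122 in feeding. The 3 groups did not overlap in this ratio, which had the order pre-NRC, post-NRC, feeding. Its mean was 0.288 ± 0.0362 in pre-NRC starvation and 0.0945 ± 0.0242 in feeding (SD, n = 3 each).

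AkhR, the AKH receptor gene, was read at low depth, with 17, 11 and 22 counts in post-NRC starvation, 61, 50 and 89 counts in pre-NRC starvation and 24, 15 and 21 counts in feeding. These are 0.594, 0.392 and 0.672 CPM in post-NRC starvation, 1.84, 1.53 and 2.47 CPM in pre-NRC starvation and 0.750, 0.454 and 0.643 CPM in feeding. The pre-NRC libraries were above all others, and the post-NRC and feeding libraries lay in the same range. The rise in pre-NRC starvation over feeding was 1.66 on the log2 scale (SE 0.54, edgeR adjusted p = 0.0489). Post-NRC starvation differed from feeding by a log2 change of -0.15 (SE 0.53, edgeR adjusted p = 0.933) and from pre-NRC starvation by -1.81 (SE 0.54, edgeR adjusted p = 0.0787). With replicates 1 and 2 of each group alone, its log2 change in pre-NRC starvation over feeding was 1.46 and did not pass (edgeR adjusted p = 0.126), nor did it without a filter (edgeR adjusted p = 0.0807) or on log2(FPKM + 1) (limma adjusted p = 0.123) and log2(FPKM + 0.1) (0.134).

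Akh, which encodes the ligand of AkhR and is a marker of the corpora cardiaca, had 8972, 4516 and 8844 CPM in post-NRC starvation, 11120.0, 17480.0 and 8439 CPM in pre-NRC starvation and 1372, 4680.0 and 2000.0 CPM in feeding. It rose by 2.20 on the log2 scale in pre-NRC starvation over feeding (SE 0.52, edgeR adjusted p = 0.0174). The post-NRC libraries overlapped both other groups, and the log2 change over feeding was 1.47 (edgeR adjusted p = 0.223). Pka-C1, the catalytic subunit of the kinase that cyclic AMP activates, fell by 1.01 in pre-NRC starvation (SE 0.24, edgeR adjusted p = 0.0171). In fits without 1 library Akh missed without feeding replicate 1 or pre-NRC replicate 2 (edgeR adjusted p up to 0.0621) and Pka-C1 without pre-NRC replicate 1 or 2 (up to 0.0604). Akh and Pka-C1 were the genes that passed with edgeR among the 10 AKH signalling genes tested in pre-NRC starvation against feeding. These 2 of 10 lie below the 27.5% of all genes tested. Other settings did not keep that order. With the replicate block 5 of the 10 passed, beside 36.8% of all genes tested, and with replicates 1 and 2 alone 5, beside 42.4%. With edgeR 0 of the 10 passed in post-NRC starvation against feeding, beside 0.809% of all genes tested. There 4 had an unadjusted p under 0.05, and DESeq2 called 1, beside 6.74%. In post-NRC against pre-NRC starvation 0 passed with edgeR, beside 5.19%, 3 had an unadjusted p under 0.05 and DESeq2 called 1, beside 17.3%. The share of all genes with an unadjusted p under 0.05 is not given here.

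The alpha-glucosidase gene tobi had 32, 25 and 37 counts in post-NRC starvation, 100, 41 and 449 counts in pre-NRC starvation and 15, 0 and 0 counts in feeding. In CPM these are 1.12, 0.890 and 1.13 in post-NRC starvation, 3.02, 1.26 and 12.5 in pre-NRC glands and 0.469, 0 and 0 in feeding. The groups did not overlap, but pre-NRC replicate 3 alone held 76.1% of the pre-NRC counts. The 2 feeding libraries without a count allow a level of up to 0.0456 CPM between them, at 3 counts. The rise in pre-NRC starvation over feeding was 5.13 on the log2 scale (SE 1.55, edgeR adjusted p = 0.0383). With replicates 1 and 2 of each group alone it was 3.16 (edgeR adjusted p = 0.142), and with the 2 groups alone it missed at 5.14 (edgeR adjusted p = 0.0686). It also missed with voom (limma adjusted p = 0.0589) and on log2(FPKM + 1) (0.0531). Post-NRC over feeding gave a log2 change of 2.72 (edgeR adjusted p = 0.428), and post-NRC over pre-NRC gave -2.41 (edgeR adjusted p = 0.28). On the opposite strand rha had 17, 17 and 7 counts in post-NRC starvation, 20, 4 and 10 in pre-NRC glands and 10, 3 and 4 in feeding.

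In pre-NRC starvation against feeding, 6 of the 7 genes passed, 4 of them higher and 2 lower, beside 27.5% of all genes tested (16.1% higher and 11.5% lower). All 7 had groups that did not overlap, as did 48.4% of all genes tested (25.3% higher and 23.1% lower). In post-NRC starvation against feeding, GlyS and GlyP passed, both lower, beside 0.809% of all genes tested (0.634% higher and 0.175% lower). Ranges were apart for tobi, higher in post-NRC starvation, and for GlyS, AGBE, GlyP and Treh, all lower, beside 23.3% of all genes tested (13.0% higher and 10.3% lower). In post-NRC against pre-NRC starvation, GlyP and Tret1-1 passed, both lower, beside 5.19% of all genes tested (1.9% higher and 3.29% lower). All but AGBE had ranges apart there, all lower, beside 29.4% of all genes tested (13.7% higher and 15.7% lower). The median log2 change of the 7 genes was -0.94 in that comparison, against -0.02 over all genes tested. It was -0.16 against 0.02 in post-NRC starvation over feeding, and 0.77 against 0.00 in pre-NRC starvation over feeding. With the replicate block, 7 of the 7 genes passed in pre-NRC starvation against feeding, beside 36.8% of all genes tested, 3 in post-NRC starvation against feeding, beside 1.77%, and 4 in post-NRC against pre-NRC starvation, beside 13.9%. With replicates 1 and 2 of each group alone, 5 passed beside 42.4%, 3 beside 6.83% and 4 beside 28.0% in the same 3 comparisons. DESeq2 called 7 beside 35.2%, 3 beside 6.74% and 5 beside 17.3% of all genes tested. The comparisons share libraries, so their values for the 7 genes are not independent of each other. The shares over all genes are no test of the set, since the 7 genes were chosen with earlier results known.

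**Figure D2:**
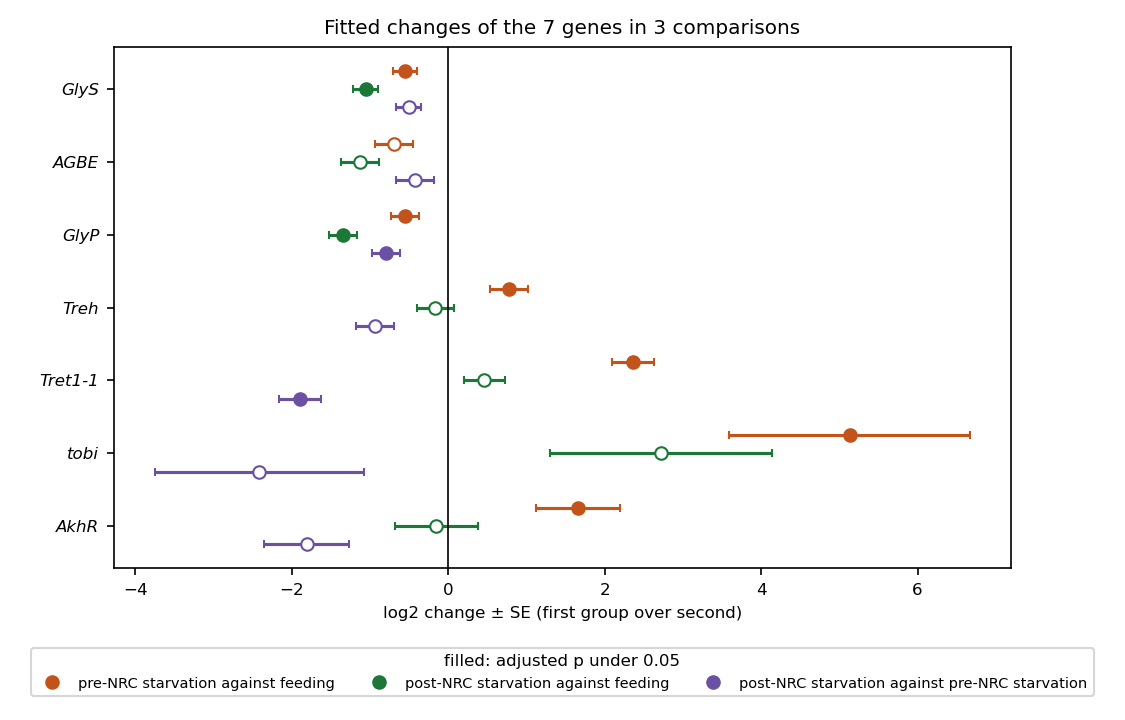
Fitted log2 change (horizontal axis, first group over second) with its SE for each of the 7 genes in the 3 comparisons; filled points have an adjusted p under 0.05. The glycogen genes lie left of 0 in all 3 comparisons, and Treh, Tret1-1, tobi and AkhR lie right of 0 in pre-NRC starvation over feeding and left of 0 in post-NRC over pre-NRC starvation.

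How far a call rested on 1 library differed between the genes. In pre-NRC starvation against feeding, Tret1-1 passed in all 9 fits that each left out 1 library, with edgeR adjusted p between 0.000751 and 0.0146. GlyS passed in 4 of 9, without feeding replicate 3 or any post-NRC library, and its adjusted p reached 0.122 (edgeR). GlyP passed in 1 of 9, without post-NRC replicate 3 (edgeR adjusted p = 0.0484), and reached 0.164. Treh passed in 1 of 9, without pre-NRC replicate 3, where its log2 change was 0.98 (edgeR adjusted p = 0.00858). AkhR passed in 0 of 9 fits, with edgeR adjusted p between 0.0552 and 0.172, and tobi in 0 of 8, between 0.0514 and 0.0973. Without pre-NRC replicate 3 the log2 change of tobi was 3.74 (edgeR adjusted p = 0.097). No direction changed in these fits.

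In post-NRC starvation against feeding, GlyP passed in 6 of 9 such fits and missed without feeding replicate 1 (edgeR adjusted p = 0.104), feeding replicate 2 (0.101) or post-NRC replicate 1 (0.0825). GlyS passed in 2 of 9, without feeding replicate 3 (edgeR adjusted p = 0.0333) or pre-NRC replicate 3 (0.023), and reached 0.159. AGBE passed without pre-NRC replicate 3 (edgeR adjusted p = 0.0447). In post-NRC against pre-NRC starvation, Tret1-1 passed in 5 of 9 fits. It missed without post-NRC replicate 1 (edgeR adjusted p = 0.0884), post-NRC replicate 2 (0.0631), pre-NRC replicate 1 (0.0708) or pre-NRC replicate 2 (0.0854). GlyP passed in 1 of 9, without pre-NRC replicate 3 (edgeR adjusted p = 0.0248). Without that library GlyS (edgeR adjusted p = 0.0493) and Treh (0.01) passed too. With replicates 1 and 2 of each group alone, the log2 changes of post-NRC over pre-NRC starvation were -0.55 for GlyS (edgeR adjusted p = 0.0219) and -1.16 for Treh (edgeR adjusted p = 0.0111).

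**Figure D3:**
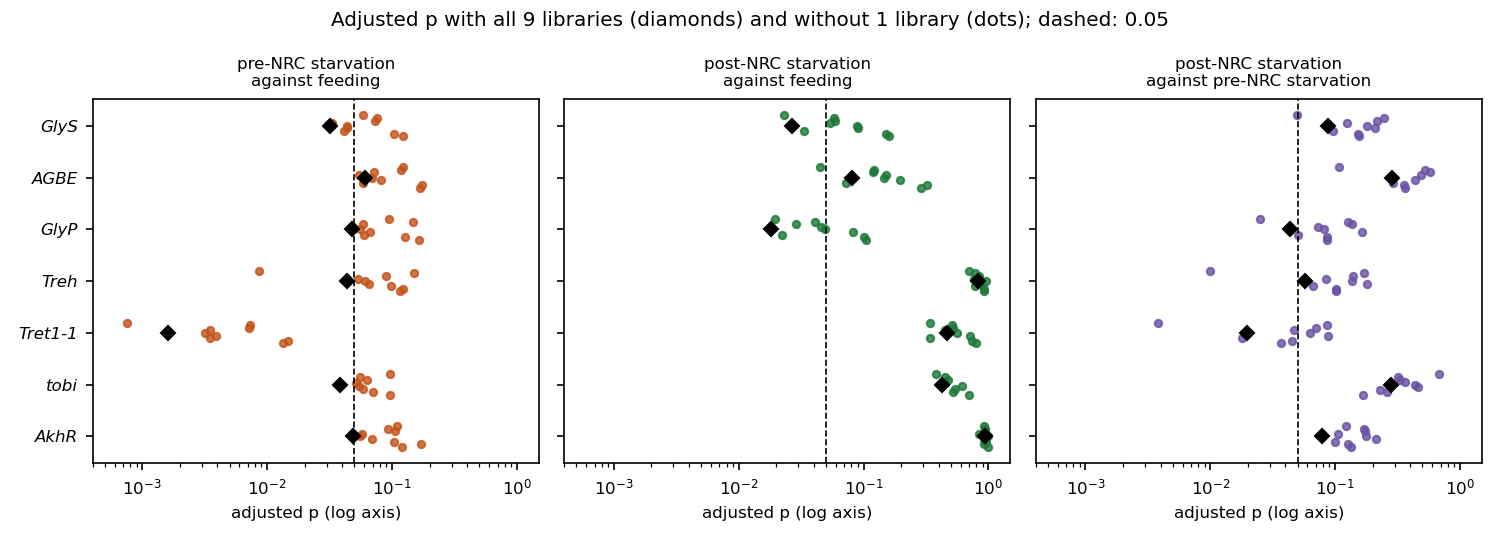
Adjusted p (log axis) of the 7 genes with all 9 libraries (diamonds) and without 1 library at a time (dots) in the 3 comparisons; the dashed line is 0.05. All Tret1-1 dots in pre-NRC starvation against feeding lie left of the line, up to 0.0146, while those of AkhR and tobi lie right of it.

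Levels per length were compared with the authors' FPKM values (fragments per gene length, scaled to the library). In post-NRC starvation the order was Treh at 25.6 FPKM, GlyP at 20.1, GlyS at 16.1, AGBE at 11.6, Tret1-1 at 3.97, tobi at 0.388 and AkhR at 0.154, and no neighbours overlapped. In pre-NRC starvation Treh averaged 50.5 FPKM and overlapped GlyP at 35.4, and GlyS at 21.6 overlapped AGBE at 16.1, which overlapped Tret1-1 at 14.6. There tobi at 2.25 FPKM overlapped AkhR at 0.755. In feeding GlyP led with 53.0 FPKM, before GlyS at 34.4, then Treh at 29.0 and AGBE at 27.1, which overlapped, and Tret1-1 at 2.98. AkhR at 0.339 and tobi at 0.0563 FPKM overlapped in feeding. Treh stood above 88.1% of the genes tested in pre-NRC starvation and above 78.4% in feeding. The gene length implied by count and FPKM varied 3.75-fold between libraries for AkhR, so its FPKM values are uncertain, and by at most 1.37-fold for the others.

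Over the 9 libraries, the log2 CPM of the glycogen genes had Pearson correlations of 0.97 between GlyP and GlyS, 0.92 between GlyP and AGBE and 0.93 between GlyS and AGBE. Correlations between Treh, Tret1-1 and AkhR were 0.85 for Treh with Tret1-1, 0.86 for Tret1-1 with AkhR and 0.72 for Treh with AkhR. With tobi they were 0.34 for Treh, 0.65 for Tret1-1 and 0.72 for AkhR. A glycogen gene with one of the other 4 genes gave values from -0.65, for AGBE with tobi, to 0.23, for GlyP with Treh. The 9 points share the 3 groups and the third replicates. Among 4904 genes compared, GlyP was most like GlyS, Desat1 (0.96) and Mlp84B (0.96). The genes most like GlyS were l(2)k09022 (0.97), GlyP and Desat1 (0.95). AGBE was most like Aldh (0.97), RpI135 (0.96) and aralar1 (0.95), and Treh most like su(s) (0.97), vari (0.97) and Cct1 (0.95). Tret1-1 was most like PH4alphaSG1, puc and Paip2 (0.98 each). For tobi these were Ssk (0.96), caup (0.96) and Oatp58Dc (0.95), and for AkhR they were GstE10 (0.96), comt (0.96) and mtd (0.95).

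Around the 7 genes, 5 lists of pathway genes held 48 genes in the table, of which 42 were tested. In pre-NRC starvation against feeding, 8 of the 42 were higher and 4 lower, with a median log2 change of 0.15, beside 16.1% higher and 11.5% lower among all genes tested. The 12 called of 42 stand beside 27.5% of all genes tested, 17 with the replicate block beside 36.8%, and 20 with replicates 1 and 2 alone beside 42.4%. In post-NRC starvation against feeding 0 of the 42 passed with edgeR, a share near the 0.809% of all genes tested. There 13 had an unadjusted p under 0.05, for which no share of all genes is given here. DESeq2 called 4, beside 6.74% of all genes tested, and voom called 0, while 8 passed with replicates 1 and 2 alone beside 6.83% of all genes. In post-NRC against pre-NRC starvation, sgg, Tps1 and foxo passed, all lower, beside 5.19% of all genes tested. There 10 passed with the replicate block beside 13.9%, and 15 with replicates 1 and 2 alone beside 28.0%.

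Of the 10 other glycogen genes tested, CG8475, which encodes the beta subunit of phosphorylase kinase, passed in pre-NRC starvation over feeding. This 1 of 10 stands beside 27.5% of all genes tested. In that comparison 2 passed with the replicate block, beside 36.8%, and 4 with replicates 1 and 2 alone, beside 42.4%. CG8475 had 73.7, 98.3 and 99.8 CPM in post-NRC starvation, 149.6, 174 and 119 CPM in pre-NRC starvation and 76.4, 78.8 and 95.3 CPM in feeding. Its rise of 0.82 on the log2 scale (SE 0.21, edgeR adjusted p = 0.0235) passed. The other listed subunit genes of this kinase, which activates the phosphorylase, did not: PhKgamma gave -0.19 (edgeR adjusted p = 0.603) and CG7766 gave 0.35 (edgeR adjusted p = 0.335). The CG8475 call held in 5 of 9 fits without 1 library and missed without feeding replicate 1 or 2 or pre-NRC replicate 1 or 2, up to 0.0967. Glycogenin (Gyg), the primer of the chain, averaged 197 ± 19.3 CPM in post-NRC starvation, 206 ± 39.1 CPM in pre-NRC starvation and 221 ± 45.5 CPM in feeding (SD, n = 3 each), and did not pass in any comparison. Pgm (Pgm1), which interconverts glucose 1-phosphate and glucose 6-phosphate, averaged 106 ± 26.6, 151 ± 20.5 and 146 ± 22.1 CPM in the same order and did not pass either. The kinase gene sgg, whose product phosphorylates glycogen synthase among other targets, was lower in post-NRC than in pre-NRC starvation, by a log2 change of -1.63 (SE 0.38, edgeR adjusted p = 0.0453). That call held in 2 of 9 fits without 1 library, without feeding replicate 3 or pre-NRC replicate 3, and reached 0.172.

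Tps1, the trehalose 6-phosphate synthase, stands at the start of trehalose synthesis. It had 7.55, 9.54 and 5.41 CPM in post-NRC starvation, 33.9, 24.95 and 152.9 CPM in pre-NRC starvation and 1.69, 1.54 and 5.17 CPM in feeding. The 3 groups did not overlap, and pre-NRC replicate 3 stood far above the other 2 pre-NRC libraries, as it did for tobi. Tps1 rose by 4.65 on the log2 scale in pre-NRC starvation over feeding (SE 0.83, edgeR adjusted p = 0.00655) and passed in all 9 fits without 1 library, where the log2 change ran from 3.39 to 5.43. It was lower in post-NRC than in pre-NRC starvation by a log2 change of -3.23 (SE 0.78, edgeR adjusted p = 0.0489), a call that held in 2 of 9 such fits, without feeding replicate 3 or pre-NRC replicate 3, and reached 0.175. CG5177, with a trehalose-phosphatase domain in the authors' deposited annotation, averaged 161 ± 41.4 CPM in post-NRC starvation, 148 ± 21.6 CPM in pre-NRC starvation and 215 ± 2.01 CPM in feeding (SD, n = 3 each). Its neighbour CG5171 had 0.175, 0.249 and 28.7 CPM in post-NRC starvation, 1.27, 1.26 and 3.89 CPM in pre-NRC glands and 0.375, 0.635 and 0.704 CPM in feeding. Post-NRC replicate 3 alone was high, and neither gene passed.

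Among 8 tested genes of hexose entry and exit, 3 were higher and 2 lower in pre-NRC starvation than in feeding, beside 16.1% and 11.5% of all genes tested. With the replicate block 6 passed, beside 36.8% of all genes tested, and with replicates 1 and 2 alone 4, beside 42.4%. Higher were CG10924 (Pepck2), a phosphoenolpyruvate carboxykinase gene, by 1.65 on the log2 scale (SE 0.39, edgeR adjusted p = 0.0172), the hexokinase gene Hex-C by 4.17 (SE 1.08, edgeR adjusted p = 0.0227) and the sugar transporter gene sut2 by 1.12 (SE 0.30, edgeR adjusted p = 0.0252). Hex-C had 4.94, 3.16 and 23.6 CPM in pre-NRC starvation and 0.281, 0.151 and 1.32 CPM in feeding, and its call missed without pre-NRC replicate 3 and without feeding replicate 1 or 2, up to 0.0838. Lower were the transporter gene sut1, with a log2 change of -0.70 (SE 0.19, edgeR adjusted p = 0.0276), and Pgi, the isomerase between glucose and fructose 6-phosphate, with -0.76 (SE 0.23, edgeR adjusted p = 0.0381). Pgi was named after its values were seen. In fits without 1 library, CG10924 passed in 7 of 9 and missed without feeding replicate 1 or 2 (edgeR adjusted p up to 0.0698). The calls of sut2 and sut1 held in 4 of 9 each (edgeR adjusted p up to 0.103 and 0.0997) and that of Pgi in 3 of 9 (up to 0.130).

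Among 11 tested genes of sugar sensing, foxo and bigmax were higher and cbt lower in pre-NRC starvation than in feeding, a share near the 27.5% of all genes tested. With replicates 1 and 2 alone 6 passed, beside 42.4% of all genes tested. The gene foxo encodes a transcription factor, a protein that insulin signalling restrains. It had 39.9, 53.6 and 47.1 CPM in post-NRC starvation, 114, 144 and 98.5 CPM in pre-NRC starvation and 34.8, 32.9 and 55.3 CPM in feeding. It rose by 1.54 on the log2 scale in pre-NRC starvation over feeding (SE 0.26, edgeR adjusted p = 0.00559) in all 9 fits without 1 library. Post-NRC starvation was lower than pre-NRC starvation by a log2 change of -1.34 (SE 0.26, edgeR adjusted p = 0.0353), which held in 2 of 9 such fits, without feeding replicate 3 or pre-NRC replicate 3, and reached 0.145. The gene bigmax, which encodes the partner of the sugar sensor Mondo, rose by 1.75 (SE 0.39, edgeR adjusted p = 0.014). Mio, the gene of Mondo itself, averaged 110.4 ± 34.1 CPM in post-NRC starvation, 164 ± 22.5 CPM in pre-NRC starvation and 116 ± 18.0 CPM in feeding (SD, n = 3 each) and did not pass. The gene cbt, a transcription factor downstream of sugar sensing, fell by 1.20 in pre-NRC starvation (SE 0.28, edgeR adjusted p = 0.0161). The calls of bigmax and cbt held in 8 of 9 fits each, and missed without pre-NRC replicate 2 (0.0507) and pre-NRC replicate 1 (0.0574) as edgeR adjusted p.

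**Figure D4:**
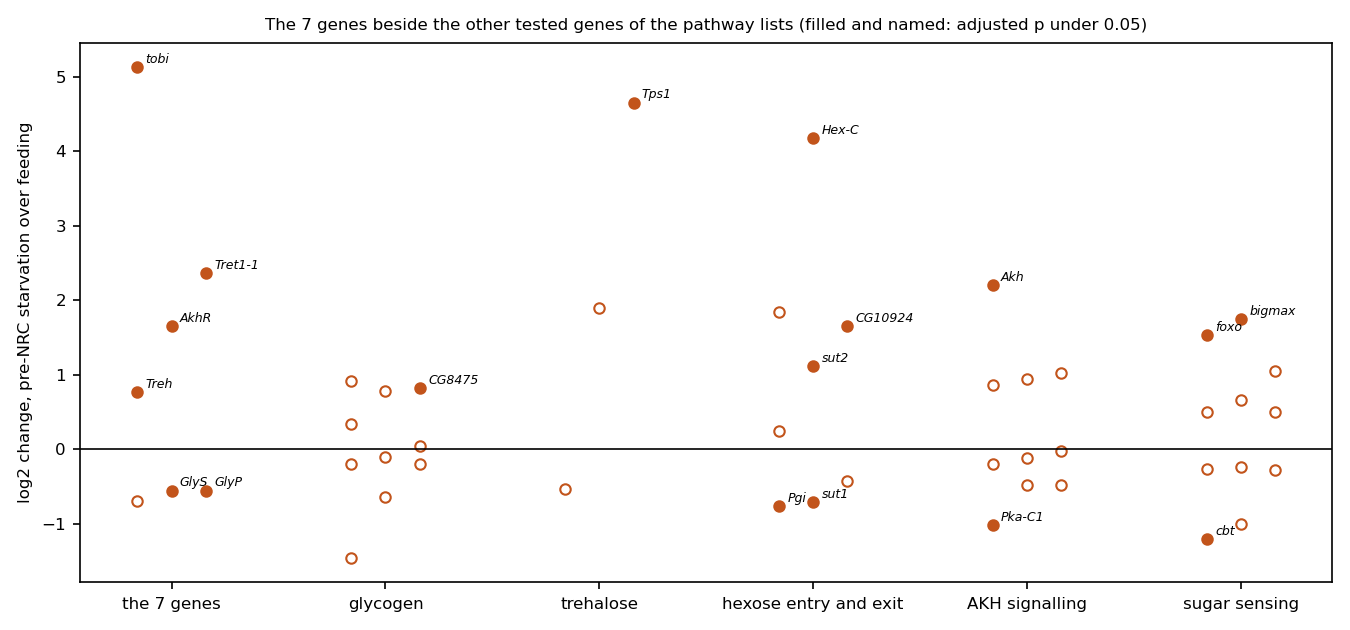
Fitted log2 change of pre-NRC starvation over feeding (vertical axis) for the 7 genes and for the other 42 tested genes of the 5 pathway lists; filled and named points have an adjusted p under 0.05. Tps1 at 4.65 and Hex-C at 4.17 lie near tobi at 5.13, and most glycogen genes lie within 1 unit of 0.

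Markers of other tissues also differed between the groups, some higher and some lower in pre-NRC starvation than in feeding. Over all genes tested, 16.1% were higher and 11.5% lower in that comparison. As background, AkhR is known from the fat body, and tobi from the fat body and gut. The summed level of 6 midgut markers was 1062 to 4391 CPM in post-NRC starvation, 1871 to 12590.0 CPM in pre-NRC starvation and 66.5 to 574 CPM in feeding, with 5 of 6 higher in pre-NRC starvation than in feeding. The highest sum was in pre-NRC replicate 3, the library with the highest tobi, AkhR, Tps1 and Hex-C. Treh and Tret1-1 instead had their lowest pre-NRC levels in that library, at 139.7 and 41.3 CPM. The next highest midgut sum, 4391 CPM, was in post-NRC replicate 2. That library had 0.890 CPM of tobi, 0.641 CPM of Hex-C and 9.54 CPM of Tps1. Its AkhR level, 0.392 CPM, was the lowest of the 9 libraries. The summed level of 7 fat body markers was 474 to 1643 CPM in post-NRC starvation, 140.5 to 2194 CPM in pre-NRC starvation and 649.6 to 1753 CPM in feeding, again highest in pre-NRC replicate 3, and 1 of 7 was higher in pre-NRC starvation than in feeding. That gene was the apolipophorin gene Rfabg, at 131.9, 108.6 and 172.6 CPM in pre-NRC starvation and 16.4, 16.5 and 35.5 CPM in feeding. The 7 markers of muscle and aorta summed to 1924 to 4031 CPM in post-NRC starvation, 7143 to 10200.0 CPM in pre-NRC starvation and 5067 to 5354 CPM in feeding. Of these, 3 were higher in pre-NRC starvation than in feeding and 4 lower in post-NRC than in pre-NRC starvation. The 5 hemocyte markers summed to 575 to 973 CPM in post-NRC starvation, 1470.0 to 2598 CPM in pre-NRC starvation and 312 to 948 CPM in feeding, with 2 of 5 higher in pre-NRC starvation than in feeding. The 5 neuron markers summed to 57.3 to 118 CPM in post-NRC starvation, 106.2 to 120.8 CPM in pre-NRC glands and 43.8 to 99.4 CPM in feeding, also with 2 of 5 higher. The 6 salivary gland markers summed to 22.0 to 2526 CPM in post-NRC starvation, 3.86 to 64.5 CPM in pre-NRC glands and 245.1 to 1888 CPM in feeding, with 2 of 6 lower in pre-NRC starvation than in feeding. No marker of these lists was at 0 in a whole group. The part of these tissues in the changes of the 7 genes was not tested.

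**Figure D5:**
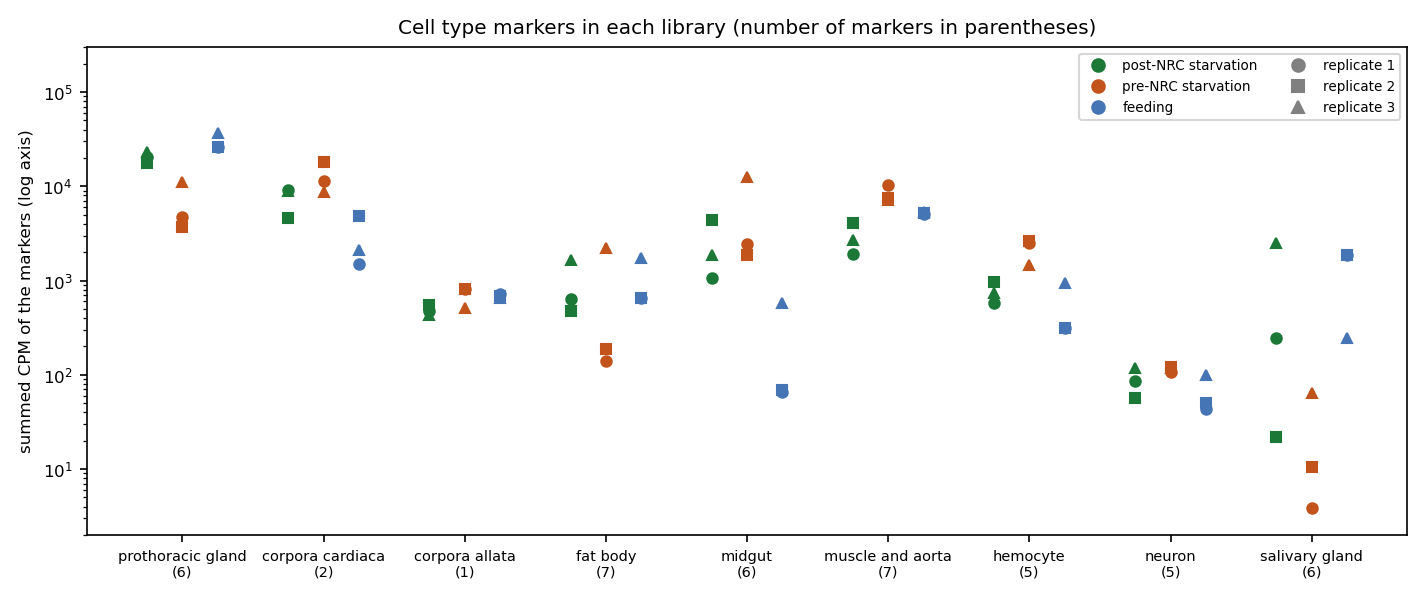
Summed CPM (log axis) of the markers of 9 tissues or cell types in each library, by group and replicate. Midgut markers reach 12590.0 CPM in pre-NRC replicate 3 and lie at 574 CPM or less in feeding, and prothoracic gland markers are lowest in pre-NRC starvation.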

How the data were processed

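Counts and FPKM values per gene and library were made by the authors and deposited in 1 table. Per the labels' protocols, RNA came from pooled glands and libraries from a directional kit, read as paired ends. The tools named in the submitters' processing notes are Bowtie, Cufflinks, HISAT2 and StringTie, with the build BDGP6; versions, roles and strand setting are not stated in the labels or headers. The FPKM values deposited by the authors served for levels per length and for alternatives. The columns named as wild type were taken as feeding, since they alone carry no starvation term. Of 14409 genes, 13605 had an identifier in the annotation BDGP6.54, the source of coordinates.

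Genes of low count were removed with filterByExpr. With TMM factors for the library sizes, edgeR 4.0.16 (quasi-likelihood test, 1 coefficient per group, all 9 libraries, two-sided) was run in R 4.3.3, with Benjamini-Hochberg adjustment over 10883 genes and a threshold of 0.05. The biological coefficient of variation was 50.6%. The SE came from the fitted change and its statistic. Correlations used log2 CPM with a prior count of 2. The scripts were tested on simulated counts. Alternatives were other scalings, no filter, DESeq2 1.42.0, voom and log2(FPKM + 1) or log2(FPKM + 0.1) in limma 3.58.1, the compared groups alone, a replicate block and leaving out each library. Replicates 1 and 2 alone, a batch term for replicate 3, feeding replicates 1 and 2 summed and Tret1-1 with Tret1-2 were added after seeing the data.

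The 3 pools of a group are called biological replicates, and p-values measure the spread between pools. Feeding replicates 1 and 2 lay close for some markers and not for others. Sgs3 had 970.2 and 988.6 CPM there, beside 90.7 CPM in replicate 3, and Akh had 1372 and 4680 CPM. Whether these pools are independent was not tested. If they are not, the spread in feeding is understated. With them summed, 1 of the 7 genes passed in pre-NRC starvation against feeding and 0 in post-NRC starvation against feeding. Same-number libraries deviated together by correlations of 0.163, 0.117 and 0.302 between pre-NRC starvation and feeding and 0.126, 0.119 and 0.297 between post-NRC starvation and feeding. All were over 0.1, but replicates 1 and 2 of unlike number reached 0.125, so only the third replicates stood out. The labels state no pairing. The main fit therefore took the libraries as unpaired, and the replicate block was an alternative. The members, lists and naming rule were chosen with earlier results of these data known. Named were all 7 genes, of each pathway list up to 4 that passed with the smallest adjusted p and up to 2 of the most abundant that did not pass, and the 3 genes most correlated with each member among those with a mean of at least 50 counts over the libraries. Left out for length are fbp, Glut1, Plc21C, Galphas and babo, abundant genes that did not pass in any comparison. Of 102 listed genes, 100 were found.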

Additional observations from a re-analysis of the deposited data

Results flagged for a closer look

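The change against feeding differed between the starved groups, by the test of post-NRC against pre-NRC starvation, for 2 of the 7 genes and 3 of the 42 tested genes of the pathway lists, beside 5.19% of all genes tested. The difference, post-NRC minus pre-NRC on the log2 scale, was -0.79 for GlyP, which was below feeding in both starved groups. It was -1.90 for Tret1-1, which was above feeding in pre-NRC starvation and overlapped feeding in post-NRC starvation. Among the pathway genes it was -3.23 for Tps1, -1.63 for sgg and -1.34 for foxo. The differences of Treh at -0.94 and AkhR at -1.81 did not pass (edgeR adjusted p = 0.0573 and 0.0787).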

How the results depend on the processing

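The 7 genes kept their direction under all alternatives run except AkhR in post-NRC starvation over feeding, which was 0.0099 without feeding replicate 1 and 0.0395 without post-NRC replicate 2 on the log2 scale, in a range from -0.33 to 0.0395 without 1 library. Of the 7 genes, 6 passed in pre-NRC starvation against feeding, but 5 with RLE factors, 4 with upper-quartile factors, 4 with voom, 3 without a filter, 3 with the 2 groups alone, 1 with feeding replicates 1 and 2 summed and 1 to 3 without 1 library. In post-NRC starvation against feeding 2 passed, but 1 with the 2 groups alone, 0 with feeding replicates 1 and 2 summed and 0 to 3 without 1 library. In post-NRC against pre-NRC starvation 2 passed, but 1 without a filter, 5 with DESeq2, 1 with the 2 groups alone, 4 with replicates 1 and 2 alone, 5 with a batch term for replicate 3, 1 with feeding replicates 1 and 2 summed and 0 to 4 without 1 library. Over all genes tested, 2998 passed in pre-NRC starvation against feeding, 4598 with replicates 1 and 2 alone, 4501 with the batch term, 1263 with feeding replicates summed and 1166 to 3404 without 1 library. In post-NRC starvation against feeding 88 passed, 733 with DESeq2, 41 with voom, 42 with the 2 groups alone, 741 with replicates 1 and 2 alone, 408 with the batch term, 18 with feeding replicates summed and 14 to 171 without 1 library. In post-NRC against pre-NRC starvation 565 passed, 1886 with DESeq2, 79 with the 2 groups alone, 1121 and 979 on log2(FPKM + 1) and log2(FPKM + 0.1), 3041 with replicates 1 and 2 alone, 2182 with the batch term, 51 with feeding replicates summed and 6 to 1551 without 1 library. The cause was not tested. The fit of tobi without feeding replicate 1 is left out, as all feeding counts are then 0. Low counts limit AkhR and tobi.

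With the replicate number as a block, 4000 genes passed in pre-NRC starvation against feeding and 193 in post-NRC starvation against feeding, and AGBE passed in both. Between the starved groups the correlations of same-number libraries were 0.0998, 0.149 and 0.365, so the third replicates stood out there too. Not every library correlated best with its own number, as post-NRC replicate 2 gave 0.234 with pre-NRC replicate 1. The block gave 1512 genes there and 4 of the 7 genes, with GlyS (edgeR adjusted p = 0.0438) and Treh (0.0451) added. It changed no other call of the 7 genes.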
